A study of Mus musculus with 2 samples.

Results

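Inflammatory chemokines are small secreted proteins that draw leukocytes towards their source. The transcripts of 10 of them (Ccl2, Ccl7, Ccl8, Ccl9, Ccl11, Cxcl1, Cxcl2, Cxcl5, Cxcl10 and Cxcl14) were followed in mouse osteoblastic cells with and without an intact copy of the transcription factor gene Ebf2. Their probe sets were found by gene symbol, as those that the platform annotation assigns to exactly 1 of these symbols, which gave 14 of the 45101 probe sets and 10 of the 18194 genes on the Affymetrix mouse genome array. A probe set is a group of short oligonucleotides that together report 1 transcript. None of the 932 probe sets with several gene symbols named one of the 10 genes. The 10 genes and the lists of related genes and markers used further on were chosen with earlier results of these data known.

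The cells came from tibia and femur of C57Bl/6 mice at embryonic stage E18.5. Both groups carry the Ebf2-lacZ allele, by which the cells were sorted after loading with FDG, a beta-galactosidase substrate that fluoresces once cleaved. The groups were Ebf2+/- (heterozygote), which keeps an intact copy of Ebf2, and Ebf2-/- (knockout); no wild-type array was analysed here. After sorting, the cells grew without a passage in alpha MEM that held 10% fetal calf serum, antibiotics and glutamine, with no added cytokine named in the labels. The labels give 3 mice for each genotype but do not say if their RNA was pooled, and there was 1 array for each genotype. Every value is therefore a single measurement with no replicate check, no p-value was computed, and differences are described by their size with 2-fold as the reference size.

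Values are MAS5 signals, linear intensities that had been scaled to the same trimmed mean on both arrays. The floor under which a signal was taken as background was 17.8 for the heterozygote and 23.8 for the knockout, the 95th percentile of 86 probe sets for smell, pheromone and taste receptor genes. A gene was called measured when it exceeded the floor on at least 1 array. Where a signal exceeded the floor on 1 array only, its fold was computed against the floor of the other array and is a lower bound. Between probe sets of the same gene, log2 ratios varied with an SD of 0.44 (pooled, 4119 genes, probe sets above the floor on both arrays). It covers disagreement between probe sets on the same arrays. It leaves out the variation between animals and any error that the probe sets of a gene share. The Ebf2 probe sets were near the floor on both arrays (13.7 to 24.9 in the heterozygote, 14.4 to 25.1 in the knockout) and do not check the labels.

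As background, chemokines are grouped by the spacing of their first cysteines into the CC class (Ccl genes) and the CXC class (Cxcl genes). The CC genes followed here mainly recruit monocytes, macrophages and eosinophils. Within the CXC class, Cxcl1, Cxcl2 and Cxcl5 act on the neutrophil receptor Cxcr2, whereas Cxcl10 acts on the T cell receptor Cxcr3. Many are switched on in stromal cells and macrophages by interleukin 1, TNF or microbial products through the transcription factor NF-kB, and Cxcl10 also by interferons. The genes lie in clusters of neighbours on the chromosomes, except Cxcl14, which lies apart from the others.

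The regions before the gene starts are shown first for the 4 genes in which a match to the kB consensus, the DNA element that NF-kB binds, was found, because they set the neighbours Cxcl1 and Cxcl2 side by side. RefSeq promoter sequences (GRCm38.p6) were found for 6 of the 10 genes: Cxcl1, Cxcl2, Cxcl10, Cxcl14, Ccl8 and Ccl9. The windows are the 250 bases before the start of Cxcl1 (chr5:90890995-90891244, + strand), Cxcl2 (chr5:90903649-90903898, + strand), Cxcl10 (chr5:92348890-92349139, - strand) and Ccl9 (chr11:83578637-83578886, - strand), 5′ to 3′ on the strand of the gene. Capitals mark kB consensus matches on either strand, with overlapping matches joined.
Cxcl1: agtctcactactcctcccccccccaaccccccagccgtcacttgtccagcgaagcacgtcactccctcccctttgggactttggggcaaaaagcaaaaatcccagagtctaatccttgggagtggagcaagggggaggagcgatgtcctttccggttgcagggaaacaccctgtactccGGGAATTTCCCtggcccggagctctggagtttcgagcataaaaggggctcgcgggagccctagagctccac
Cxcl2: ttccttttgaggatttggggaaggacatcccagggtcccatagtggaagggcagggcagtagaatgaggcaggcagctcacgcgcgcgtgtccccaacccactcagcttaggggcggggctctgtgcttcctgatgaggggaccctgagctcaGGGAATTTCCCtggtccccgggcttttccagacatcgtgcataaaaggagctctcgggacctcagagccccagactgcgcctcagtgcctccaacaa
Cxcl10: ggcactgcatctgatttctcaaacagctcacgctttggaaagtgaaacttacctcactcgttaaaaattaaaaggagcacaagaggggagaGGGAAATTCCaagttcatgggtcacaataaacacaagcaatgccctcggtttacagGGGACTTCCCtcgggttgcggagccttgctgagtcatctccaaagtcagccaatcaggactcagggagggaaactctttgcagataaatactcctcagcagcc
Ccl9: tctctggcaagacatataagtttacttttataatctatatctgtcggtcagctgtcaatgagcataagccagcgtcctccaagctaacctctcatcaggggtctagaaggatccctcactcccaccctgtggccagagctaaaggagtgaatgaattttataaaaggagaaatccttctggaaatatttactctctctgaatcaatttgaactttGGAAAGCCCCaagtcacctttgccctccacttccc

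The Cxcl1 and Cxcl2 windows held the same 11 bases, GGGAATTTCCC, which match the consensus on both strands. They end 61 bases before the start of Cxcl1 and 87 bases before that of Cxcl2, and with the next 3 bases they form the longest run shared by both windows, 14 bases. Cxcl10 held 2 separate matches, GGGAAATTCC and GGGACTTCCC, and Ccl9 held 1, GGAAAGCCCC as printed, on the opposite strand. The kB consensus was found in 4 of the 6 windows and in 3.9% of all 32851 promoter windows of the same length. The interferon-response core, GAAA and GAAA with 2 bases of any kind between (both strands), was found in the windows of Cxcl10 and Cxcl14 and in 2.98% of all windows, and the AP-1 motif TGANTCA (both strands) in those of Cxcl10 and Ccl9 and in 6.75% of all. The EBF motif, TCCC and GGGA with 2 bases of any kind between (both strands), was found in 0 of the 6 windows and in 0.779% of all, which says only that these letters are not in these windows. No match overlapped a match of another motif. A match describes the letters and not a bound site.

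Across the 10 genes, 8 were measured, 6 of them above the floor on both arrays (Ccl2, Ccl7, Ccl9, Cxcl1, Cxcl2 and Cxcl14) and 2 on the knockout array only (Cxcl5 and Cxcl10). Ccl8 and Ccl11 were under the floor on both. Of the 8 measured genes, 4 had at least 2-fold higher signal in the knockout (Ccl7, Cxcl5, Cxcl1 and Cxcl14), against 6.3% of the 11785 measured genes, and 2 had at least 2-fold lower signal (Cxcl2 and Ccl9), against 3.46%. Among the 8014 measured genes with a mean signal in the range of these 8, the shares were 7.6% higher and 4.44% lower. Scaling the arrays to the spike-in transcripts, which lowers every log2 ratio by 0.18, turned the shares over all measured genes to 4.48% higher and 5.3% lower and left the counts of chemokines at 4 and 2. The median log2 ratio of the 8 was 0.90, beside 0.03 over all measured genes. Cxcl5 and Cxcl10 were measured through the knockout array only and enter this median, and Cxcl5 the count, as lower bounds. Over the 6 genes above the floor on both arrays the median was 0.61, beside 0.00075 over all such genes. The log2 ratios of the 8 ran from -2.22 to 2.56, so the group did not differ in 1 direction.

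**Figure D1:**
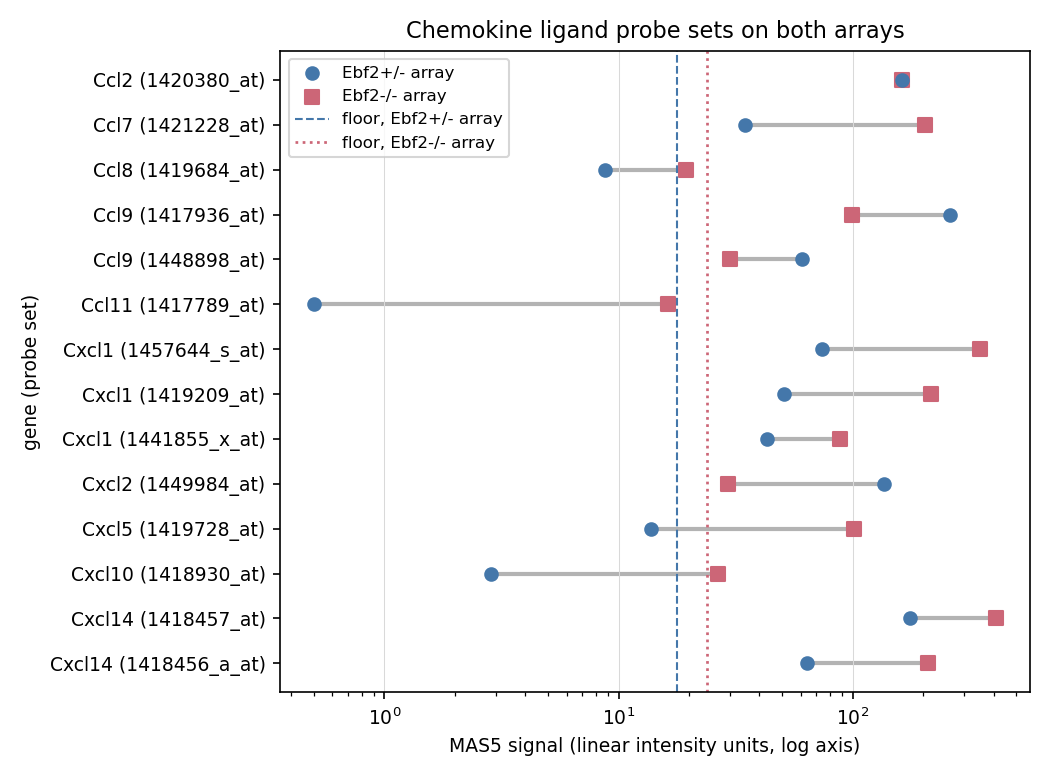
MAS5 signal (log axis) of the 14 probe sets of the 10 chemokine ligands on the heterozygote array (circles) and the knockout array (squares), with the floor of each array as a vertical line. The 3 probe sets of Cxcl1 lie to the right in the knockout, those of Ccl9 and Cxcl2 lie to the left, and the 2 symbols of Ccl2 coincide.

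The neutrophil attractants were split. Cxcl1, a ligand of Cxcr2 made by stromal cells and macrophages, gave 73.7 in Ebf2+/- and 350.4 in Ebf2-/- cells by its brightest probe set (1457644_s_at), 50.8 and 216 by 1419209_at, and 43.2 and 88.8 by 1441855_x_at. All 3 probe sets were above the floor on both arrays and higher in the knockout, by 4.75-fold, 4.26-fold and 2.05-fold. The mean of their log2 ratios was 1.79, against 2.25 for the brightest. The endings _s_at and _x_at mark probe sets that can detect more than 1 transcript. The 4.26-fold value comes from the probe set without such an ending.

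Cxcl2, the gene next to Cxcl1 on the chromosome and another Cxcr2 ligand, gave 136 on the heterozygote array and 29.3 on the knockout array. It was 4.64-fold lower in the knockout, opposite to Cxcl1, and the knockout signal was 1.23 times the floor. Only 39 of the 11785 measured genes had a lower ratio. The log2 ratios of Cxcl1 and Cxcl2 were 4.46 apart, beside the pooled SD of 0.44 between probe sets of 1 gene. With a pseudocount of 50 added to both signals, the log2 ratio of Cxcl2 was -1.23. Cxcl2 has 1 probe set, so no second measurement of it was at hand.

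Cxcl5, the Cxcr2 ligand also known as LIX, gave 13.8 in the heterozygote, under the floor, and 102 in the knockout. It was thus at least 5.71-fold higher in the knockout, by its only probe set. With a pseudocount of 50 the log2 ratio was 1.25 in place of 2.51. The receptor Cxcr2 itself was under the floor on both arrays, at 2.34 and 4.73.

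Cxcl10, the interferon-inducible ligand of Cxcr3, gave 2.84 on the heterozygote array and 26.6 on the knockout array. The knockout signal was 1.12 times the floor of its own array. Against the lower heterozygote floor of 17.8 it was at least 1.49-fold higher, under the reference size. With lowess scaling the log2 ratio was 0.16, so this bound depends on the scaling. Without a floor the log2 ratio was 3.22, and with the 99th percentile of the receptor probe sets as floor the gene was not measured, so its size is not fixed by these arrays. Cxcl14, an epithelial and stromal chemokine with a less well-defined receptor, read 176 and 408 by its brighter probe set and 63.7 and 211 by the other. Both probe sets were above the floor on both arrays and higher in the knockout, by 2.32-fold and 3.31-fold. Spike-in scaling and a pseudocount of 50 kept Cxcl14 past 2-fold, at log2 ratios of 1.04 and 1.02.

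Among the CC ligands, Ccl2 and Ccl7, both ligands of the monocyte receptor Ccr2, went apart. Ccl2 read 163 on both arrays, with a log2 ratio of -0.00106. Ccl7 gave 34.6 on the heterozygote array and 205 on the knockout array, 5.92-fold higher, and 51 of the 11785 measured genes had a higher ratio. The log2 ratio of Ccl7 exceeded that of Ccl2 by 2.57. Each has 1 probe set, and both were above the floor on both arrays. The log2 ratio of Ccl7 was 1.59 with a pseudocount of 50.

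Ccl9, a Ccr1 ligand of macrophages and osteoclasts, read 260.2 and 99.8 by its brighter probe set and 60.7 and 29.8 by the other. Both were lower in the knockout, by 2.61-fold and 2.03-fold, and both stayed above the floor there. Ccl8, another monocyte attractant, read 8.77 and 19.3, and Ccl11, the eosinophil attractant eotaxin, read 0.502 and 16.2. These 4 signals were under the floor, so no fold is given, and a low level or absence on either array cannot be told apart.

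**Figure D2:**
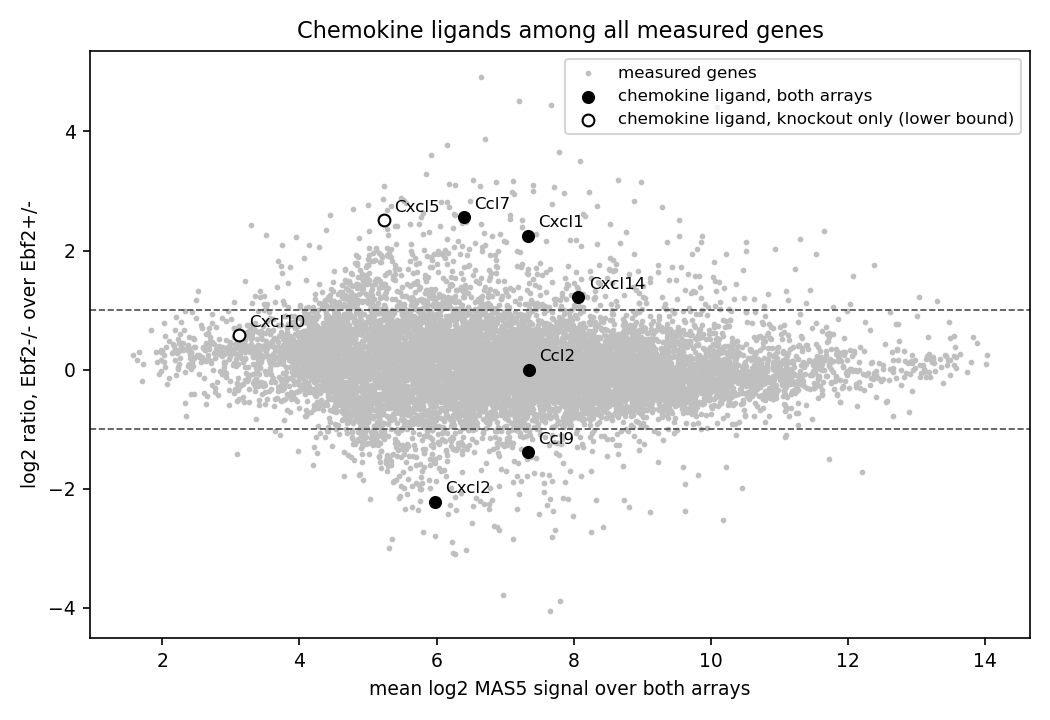
Log2 ratio of knockout over heterozygote against the mean log2 signal over both arrays for all 11785 measured genes (grey), with the 8 measured chemokine ligands in black and open symbols for lower bounds. Dashed lines mark 2-fold; Ccl7, Cxcl5, Cxcl1 and Cxcl14 lie above the upper line, Ccl9 and Cxcl2 below the lower one, and Ccl2 at a log2 ratio of -0.00106.

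Differences in opposite directions were found between neighbouring genes. In the chromosome 5 cluster, whose 7 protein-coding genes run in the order Cxcl5, Ppbp, Pf4, Cxcl3, Cxcl15, Cxcl1 and Cxcl2, 2 genes passed 2-fold upwards in the knockout (Cxcl5 and Cxcl1) and 2 downwards (Pf4 and Cxcl2). Pf4, a platelet and macrophage chemokine, gave 785.5 in Ebf2+/- and 119 in Ebf2-/- cells, 6.63-fold lower. Cxcl3 and Cxcl15 were under the floor on both arrays, and Ppbp, at 18.0 and 19.0, received no fold.

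In the chromosome 11 cluster of 6 genes from Ccl2 to Ccl1, only Ccl7 passed 2-fold. Ccl12, between Ccl11 and Ccl8, read 30.7 and 25.3, while Ccl1 was under the floor. In the other chromosome 11 cluster, from Ccl5 to Ccl4, 3 of 5 genes were measured. Ccl9 and Ccl3 passed 2-fold downwards and 0 upwards. Ccl3, a chemokine of macrophages, gave 108 in Ebf2+/- and 9.84 in Ebf2-/- cells, at least 4.51-fold lower, whereas its neighbour Ccl4 read 27.9 and 28.6. Ccl5 and Ccl6 were under the floor on both arrays.

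The other chemokine ligands were mostly dim. Of 28 further ligands, 25 had a probe set of their own and 13 were measured (median log2 ratio 0.04). Of the 13, 1 (7.69%) passed 2-fold upwards in the knockout and 2 (15.4%) downwards, beside 6.3% and 3.46% of all measured genes. The gene past 2-fold upwards was Cxcl12, the ligand of Cxcr4 that holds haematopoietic stem cells in the marrow, at 1177 and 5367, and those lower were Pf4 and Ccl3. Cxcl9, an interferon-inducible relative of Cxcl10, read 6.71 and 7.05, under the floor on both arrays. Over all 21 measured chemokine ligands, the 8 measured genes followed here included, 5 (23.8%) passed 2-fold upwards and 4 (19.0%) downwards.

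Most chemokine receptors were under the floor. Of 18 receptors 17 had a probe set of their own and 3 were measured, all in the heterozygote only: Cx3cr1, Cxcr3 and Ccrl2, the last of which does not signal in the usual way. Cx3cr1, a macrophage receptor, read 87.4 and 19.7 and was at least 3.67-fold lower in the knockout. It was under 2-fold with a pseudocount of 50 (log2 ratio -0.98) and with the mean over probe sets (-0.94). Its other probe set (10.2 and 2.11) was under the floor on both arrays. Ccr1 and Ccr2, the receptors for Ccl9 and for Ccl2 and Ccl7, were under the floor on both arrays (10.4 and 5.86 for Ccr1, 16.3 and 7.26 for Ccr2). Of the 4 atypical receptors, which bind chemokines without the usual signalling, 0 passed 2-fold by the brightest probe set. Ackr3, which takes up Cxcl12, read 172 and 151, and Ackr4 read 57.9 and 109. Another probe set of Ackr4 read 52.1 and 119, 2.28-fold higher in the knockout. Of 6 proteases that trim chemokines, only Mmp2 (2349 and 3147) and Mmp14 (848 and 1218) were measured, and 0 passed 2-fold.

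Genes of the pathways that switch chemokines on, inhibitors of these pathways included, passed 2-fold at shares near those over all measured genes. Of 24 measured genes of the interleukin 1, TNF, Toll-like receptor and NF-kB pathway, 2 passed 2-fold upwards in the knockout and 0 downwards (median log2 ratio 0.08), beside 6.3% and 3.46% of all measured genes. They were the interleukin 1 receptor chains Il1rap (90.3 and 237, 2.62-fold) and Il1r1 (179 and 369, 2.06-fold). Il1rap was 1.04-fold higher by another probe set above the floor on both arrays (41.8 and 43.7). A further Il1rap probe set, under the floor in the heterozygote, read 13.6 and 40.3 and passed 2-fold upwards. Its remaining probe sets were under the floor on both arrays. Il1r1 was under 2-fold with spike-in scaling and with a pseudocount of 50 (log2 ratio 0.87 in each). With spike-in scaling 2 genes passed 2-fold downwards, Traf6 at -1.02 and Ikbkg at -1.06. With the mean over probe sets 0 genes passed in either direction. In that mean a probe set under the floor on both arrays counts as a log2 ratio of 0, as the second of Il1r1 (8.59 and 0.335) did. The NF-kB subunit Rela read 489 and 512 and the NF-kB inhibitor Nfkbia, itself an NF-kB target, 820.0 and 870.4. The inducers Il1a and Il1b were under the floor on both arrays, and Tnf read 21.8 and 1.61. Rela, Nfkbia, Il1a, Il1b and Tnf were singled out after their values were seen.

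Of 14 measured genes that respond to NF-kB, 5 passed 2-fold upwards in the knockout and 1 downwards (median log2 ratio 0.28). These were 35.7% and 7.14% of the list, beside 6.3% and 3.46% of all measured genes. Of the 5, Il6 and Lcn2 were measured through the knockout array only and enter the count and the median as lower bounds. Over the 12 genes above the floor on both arrays the median was 0.20, beside 0.00075 over all such genes. With spike-in scaling 4 passed upwards, and Csf1 was under 2-fold (log2 ratio 0.94). Il6, a cytokine co-induced with Cxcl1 in stromal cells, read 16.6 and 127, at least 7.14-fold higher. The transcription factor Cebpd read 325 and 1103 (3.40-fold), the collagenase Mmp13 92.3 and 280.1 (3.04-fold), the iron carrier binding protein Lcn2 2.60 and 63.5 (at least 3.56-fold) and the macrophage growth factor Csf1 658 and 1421 (2.16-fold). Ptgs2, the inducible cyclooxygenase, read 198 and 87.0 and was 2.28-fold lower. Other responsive genes were under 2-fold, among them the adhesion molecules Icam1 (102 and 117) and Vcam1 (631 and 715). Csf1, Ptgs2, Icam1 and Vcam1 were named after their values were seen.

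Of 19 measured interferon pathway genes, 2 passed 2-fold upwards in the knockout and 0 downwards (median log2 ratio 0.23), 10.5% of the list beside 6.3% of all measured genes. They were the GTPase Iigp1 (16.2 and 129, at least 7.22-fold) and the transcription factor Irf1 (109 and 234, 2.15-fold). Iigp1 was measured through the knockout array only. Over the 17 genes above the floor on both arrays the median was 0.11. Irf1 was under 2-fold with spike-in scaling (log2 ratio 0.93) and with a pseudocount of 50 (0.84). Irf7 (25.5 and 49.3) and Oasl2 (40.7 and 77.9) were under 2-fold. Of 8 factors that act on the stability of chemokine transcripts, all measured, 1 passed 2-fold by the brightest probe set, 12.5% of the list beside 6.3% of all measured genes. It was Zfp36, which speeds the decay of transcripts with AU-rich elements, at 345 and 797 (2.31-fold higher). Other probe sets of its relative Zfp36l1 (38.0 and 127, 3.33-fold higher) and of the decay factor Khsrp (17.6 and 50.8, and 6.71 and 64.7, both under the floor in the heterozygote) also passed 2-fold, and with the mean over probe sets 3 of the 8 passed.

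**Figure D3:**
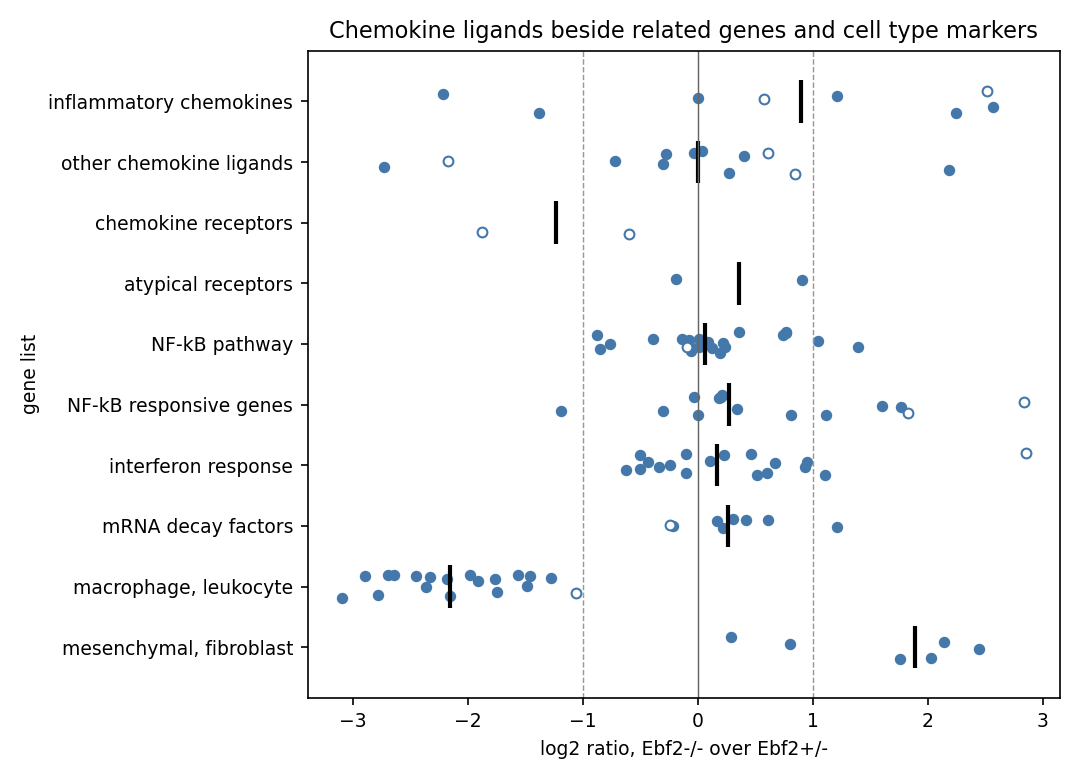
Log2 ratio of knockout over heterozygote for the genes of each list with a ratio, with open symbols for genes above the floor on 1 array and black bars for the list medians over the genes shown. Inflammatory chemokines lie on both sides of the dashed 2-fold lines, macrophage and leukocyte genes below the lower line, and most mesenchymal genes above the upper one.

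Markers of the cell types that can make these ligands differed between the arrays. For comparison, 6.3% of all measured genes passed 2-fold upwards and 3.46% downwards. In these lacZ-sorted and then cultured cells, 19 of 20 macrophage and leukocyte markers were measured, and all 19 passed 2-fold downwards (median log2 ratio -2.15). With a pseudocount of 50, and with the mean over probe sets, 17 of the 19 passed. Their summed signal was 10478 in Ebf2+/- and 2504 in Ebf2-/- cells, 4.18-fold lower. No marker read 0, and Itgam was under the floor on both arrays. The common leukocyte antigen Ptprc read 205 and 27.5, the macrophage growth factor receptor Csf1r 1529 and 405, and the lysozyme Lyz2 2780 and 702. The log2 ratio of Cxcl2 (-2.22) lay close to the median of these markers and that of Ccl9 (-1.38) above it. The part of macrophages in the ratios of Cxcl2, Ccl9, Pf4 and Ccl3 was not tested. In such bulk RNA, fewer cells of a type and less RNA per cell cannot be told apart.

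Of 6 measured mesenchymal and fibroblast markers, 4 passed 2-fold upwards in the knockout and 0 downwards, with a median of 1.89 (log2 ratio) and a summed signal of 6725 against 20699. Pdgfra, a progenitor surface receptor, read 158 and 860.2, and Thy1 970.3 and 3957. All 5 measured adipocyte markers were at least 2-fold higher, with Cebpa at 39.2 and 349.6. Adipoq, 1 of the 5, was measured through the knockout array only (5.04 and 74.7). With spike-in scaling, and with a pseudocount of 50, 4 of the 5 passed, and Pparg was at log2 ratios of 0.93 and 0.61. The part of these cells in the ratios of Cxcl1, Cxcl5, Ccl7 and Cxcl14 was not tested.

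The osteoblast label was met in part: of 9 markers, 6 had a probe set of their own and 4 were measured, 2 of them (Col1a1 and Alpl) at least 2-fold higher in the knockout. Col1a1 read 5478 and 12784 by its brightest probe set, but another gave 1375 and 982, 1.40-fold lower in the knockout. With the mean over probe sets its log2 ratio was 0.37. Alpl read 25.4 and 51.8 and was under 2-fold with spike-in scaling (log2 ratio 0.85), quantile scaling (0.96), lowess (0.89) and a pseudocount of 50 (0.43). Sp7 read 83.7 and 53.3, whereas the late markers Ibsp and Dmp1 were under the floor on both arrays. Of 6 neutrophil markers only Elane was above the floor (23.1 in the heterozygote), of 5 endothelial markers 2 were measured (Tek at 3.53 and 46.5, Kdr at 33.9 and 3.32), and of 4 platelet markers 3 were measured and 0 passed 2-fold. The neutrophil markers S100a8 (7.40 and 20.8) and S100a9 (7.96 and 4.11) were under the floor on both arrays, as was the platelet marker Gp9 (1.12 and 1.28).

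**Figure D4:**
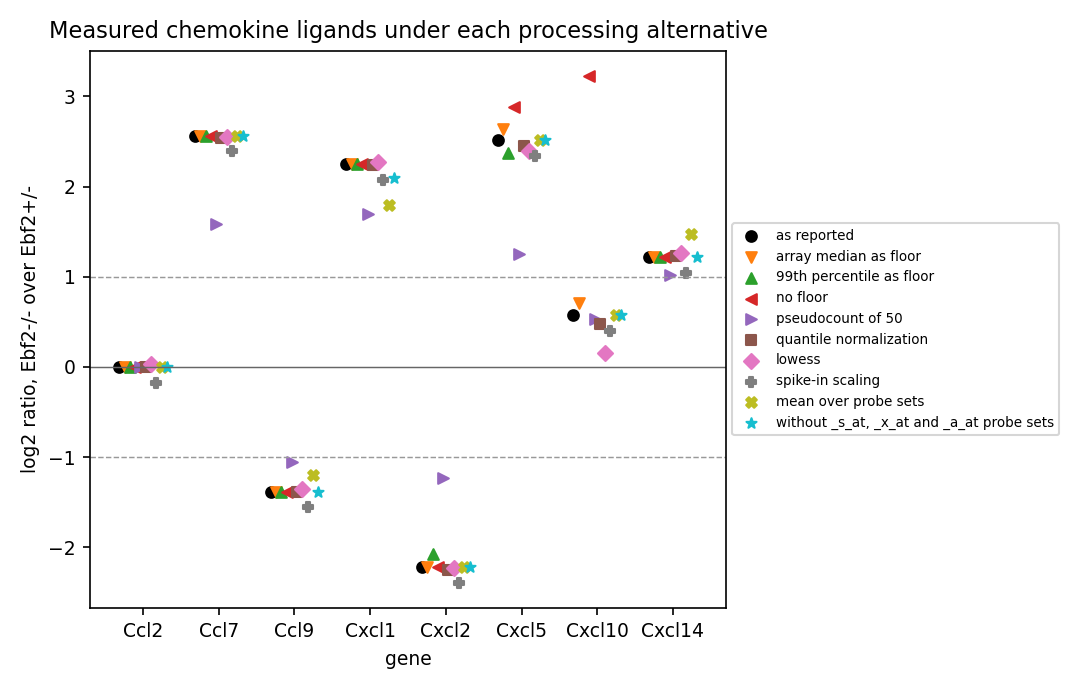
Log2 ratio of knockout over heterozygote for the 8 measured chemokine ligands as reported (black) and under 9 other ways of setting the floor, scaling the arrays and combining probe sets. Every alternative for Ccl7, Cxcl1, Cxcl5 and Cxcl14 lies above the 2-fold line and every alternative for Ccl9 and Cxcl2 below the lower one, while Cxcl10 spans 0.16 to 3.22.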

How the data were processed

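The authors deposited a linear intensity for each probe set, computed with MAS5 per the submitters' processing notes; the version and scaling target of MAS5 were not given in the sources used here. Trimming 2% of values at each end left a mean intensity of 100.0 on both arrays, so a change common to most transcripts would be hidden by the scaling. Detection calls were not used. Genotype came from the label of each sample.

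Of 45101 probe sets, 34958 had 1 gene symbol in the platform annotation, 932 had several and 9211 were not listed. A gene took the value of its brightest probe set (mean log2 signal over both arrays). Signals under the floor were set to the floor before taking the log2 ratio of knockout over heterozygote. A probe set under the floor on both arrays was given a log2 ratio of 0, which pulls the mean over probe sets towards 0. For 609 measured genes the signal was not above the other array's floor, so they have no fold. They enter medians and counts at their floor-set value. As the knockout floor is the higher, these genes, above the heterozygote floor only, enter with positive log2 ratios, such as Tnf at 0.13. Over genes with a fold, the median was 0.17 for the interferon genes in place of 0.23. For the other chemokine ligands it was 0.0023 in place of 0.04. With 1 array for each genotype no test was possible, and the number of arrays limits the precision.

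The 10 chemokines and the lists were chosen with earlier results of these data known. The text names all 10, Cxcl12, from each list the 4 measured genes with the largest ratio either way, and from marker lists also the 3 brightest, of which those that matter are printed; other names were chosen after their values were seen. In gene order and promoter paragraphs, neighbours and receptors are named for their place or role. Gene order came from the mouse RefSeq table (GRCm38.p6). The alternatives were the median signal and the 99th percentile as floor, no floor, a pseudocount of 50, quantile, lowess and spike-in scaling (18 probe sets), the mean over probe sets, and leaving out _s_at, _x_at and _a_at probe sets. The gene table was tested on simulated data, with differences planted only in brighter genes above the floor on both arrays. That test did not cover lower bounds or signals near the floor. Python 3.11.15, pandas 2.3.3, numpy 2.4.6, statsmodels 0.14.6 and Biopython 1.88 were used.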

Additional observations from a re-analysis of the deposited data

How the results depend on the processing

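The directions of Ccl7, Cxcl1, Cxcl5, Cxcl14, Ccl9 and Cxcl2, and their side of 2-fold, were kept under all 9 alternatives. Not every alternative could move every gene. Ccl7 has 1 probe set and lay above every floor, so changing the floor or the probe sets left its log2 ratio at 2.56. The count of chemokines at least 2-fold higher was 4, and 5 without a floor, where Cxcl10 joined; the count at least 2-fold lower was 2 throughout. Their median log2 ratio ranged from 0.71 with the array median as floor to 1.73 without a floor, where the log2 ratio of Cxcl10 was 3.22. Ccl8 was measured only with the array median as floor, at least 1.19-fold higher. A pseudocount of 50 gave the lowest ratios of Ccl7, Cxcl1, Cxcl5 and Cxcl14.

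Over all measured genes, 742 passed 2-fold upwards and 408 downwards. These counts were 280 and 134 with the pseudocount, 997 and 932 without a floor, and 641 and 518 with lowess. They were 528 and 625 with spike-in scaling, and 502 and 244 with the mean over probe sets. The knockout floor is the higher, so a gene above 1 floor only passes 2-fold upwards at a lower signal than downwards. The shares of 6.3% and 3.46% over all measured genes depend in part on this rule. Without a floor 3 other chemokine ligands were at least 2-fold higher in place of 1, and with the pseudocount 0 NF-kB responsive genes were at least 2-fold lower in place of 1. The causes were not tested. Signals close to the floor, such as those of Cxcl10 and of Cxcl2 in the knockout, limit what the ratios can show.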
